A study of Mus musculus with 57 samples.

Results

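Cytochrome P450 enzymes are haem proteins that insert oxygen into fatty acids, steroids, vitamins and foreign chemicals. The genes described here were all those with a symbol of the form Cyp, family number, subfamily letters and member number, 66 of the 16475 genes measured in whole kidneys of 3 lupus-prone mouse strains. Membership follows from the symbol alone. RNA was hybridized to Affymetrix arrays, 1 array per sample and 57 in all. Nephritic NZB/W kidneys were taken at 36 weeks (n = 10), kidneys at proteinuria onset at 23 weeks (n = 6), kidneys without proteinuria at 23 weeks (n = 11) and prenephritic kidneys at 16 weeks (n = 8). Nephritic (n = 5) and prenephritic (n = 5) NZM2410 kidneys and nephritic (n = 6) and prenephritic (n = 6) NZW/BXSB kidneys made up the rest, with no age stated for either strain. Age and nephritis cannot be told apart where NZB/W kidneys of 36 and 16 weeks are compared. Sample titles called the prenephritic NZM2410 kidneys young and the nephritic ones sick, so age may differ between those groups too. No treatment was named in any group used here, and the sex of the mice was not given in the sources used here. One label field of the 36-week kidneys called them prenephritic while their description said nephritic, and the description was followed.

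The kidney carries P450 enzymes mostly in the proximal tubule, where they make and break down the active vitamin D hormone and turn arachidonic acid into epoxides (CYP2C and CYP2J enzymes) and hydroxylated products (CYP4 enzymes) that act on blood vessels and salt transport. Microsomal P450s receive electrons from P450 oxidoreductase, encoded by Por, and mitochondrial ones from ferredoxin, encoded by Fdx1. Several P450s of the mouse liver and kidney differ between the sexes, and steroid hormones are made by P450s of the adrenal cortex, a gland that lies against the kidney.

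Levels are the authors' log2 values, and a difference of 1 on this scale is a doubling or a halving. Each strain had its own table, normalized in a way that may differ between tables, with array medians of 6.97 to 7.06 in NZB/W, 7.12 to 7.2 in NZM2410 kidneys and 7.68 to 7.75 in NZW/BXSB. Levels were therefore compared within a strain only. By the authors' baseline flag 50 members were expressed above baseline in NZB/W, 47 in NZM2410 kidneys and 54 in NZW/BXSB, 46 of them in all 3 tables and 11 in none. The kidney label was borne out by 13 proximal tubule marker genes, whose mean level was between 10.14 and 12.67 on each array. Leukocyte markers were higher in nephritic kidneys, 7 of 8 in NZB/W at 36 against 16 weeks, 4 of 8 in NZM2410 and 5 of 8 in NZW/BXSB. Proximal tubule markers fell, 11 of 13 in NZB/W, 10 of 13 in NZM2410 (where 1 rose) and 3 of 13 in NZW/BXSB. The part these shifts played in the changes of the P450 genes was not tested, and in whole tissue fewer cells of a type and less RNA per cell cannot be told apart. Whether each array stands for a mouse of its own is not stated in the labels, and the tests then reflect only how these samples vary, which may be technical. Changes are given below on the log2 scale, each with its standard error from limma. A gene was called where the p-value, adjusted by Benjamini and Hochberg over all 16475 genes, was below 0.05.

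In NZB/W kidneys at 36 against 16 weeks, 13 of the 66 P450 genes were called, 8 higher and 5 lower. Over all genes 26.3% were called in that comparison, 11% higher and 15.3% lower. In NZM2410, nephritic against prenephritic, 14 were called, 9 higher and 5 lower, with 25.3% of all genes called (11.4% higher and 13.8% lower). In NZW/BXSB, 21 were called, 6 higher and 15 lower, with 20.1% of all genes called (11.4% higher and 8.73% lower). The median log2 fold change of the 66 genes was -0.02 for NZB/W, -0.02 for NZM2410 and -0.12 for NZW/BXSB kidneys, beside -0.01, -0.01 and -0.03 over all genes. Nephritic and prenephritic levels did not overlap for 4 members in NZB/W, 11 in NZM2410 kidneys and 15 in NZW/BXSB, all of them called, which is 6.06%, 16.7% and 22.7% of the family, beside 2.23%, 17.8% and 8.41% of all genes. Among called genes alone, groups stood apart for 30.8%, 78.6% and 71.4% of the members, beside 8.46%, 66.4% and 41.2% of all genes. A set of 8 members was called in all 3 strains (12.1%, beside 7.64% of all genes), 5 in 2 strains (7.58%, beside 13.1%), 14 in 1 strain (21.2%, beside 22.7%) and 39 in none (59.1%, beside 56.6%). Fold changes were also compared between strains. The NZB/W change minus the NZM2410 change was called for 3 members, all lower, with 1.72% of all genes called (0.771% higher and 0.947% lower). NZB/W minus NZW/BXSB was called for 7, 5 higher and 2 lower, with 5.77% of all genes (1.66% higher and 4.12% lower). NZM2410 minus NZW/BXSB was called for 9, 8 higher and 1 lower, with 5.53% of all genes (1.94% higher and 3.59% lower). Of these, 3 of the 7 (Cyp2b10, Cyp2d10 and Cyp2r1) and 2 of the 9 (Cyp2b10 and Cyp2d10) involve a strain in which the member was not above the authors' baseline, and no strain difference is read from them.

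**Figure D1:**
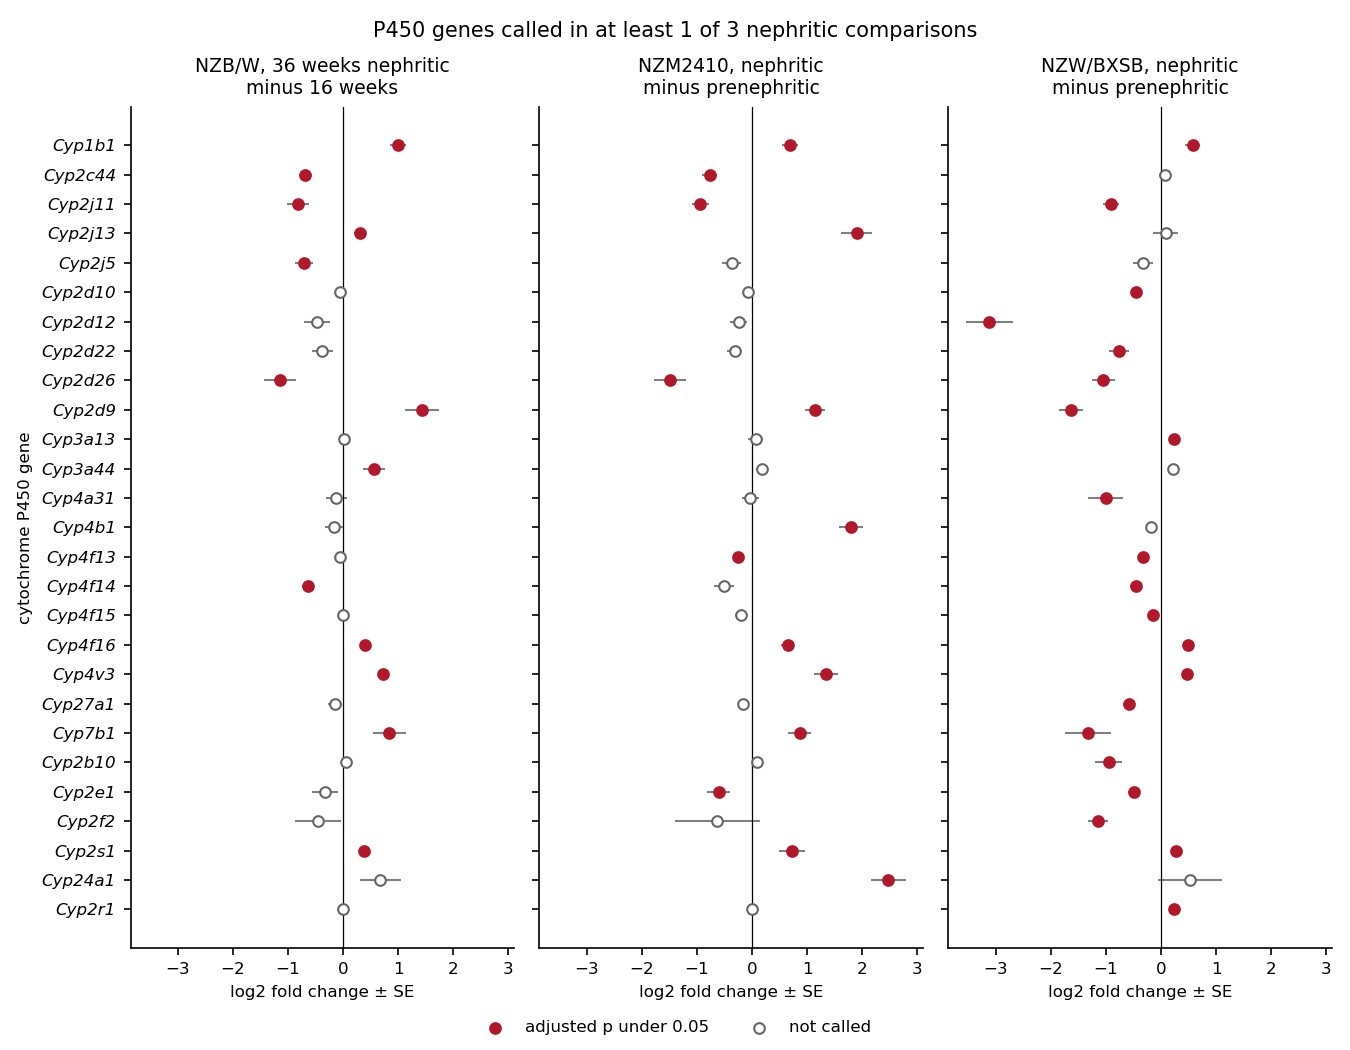
Log2 fold changes (horizontal axis, ± standard error) of the 27 P450 genes called in at least 1 of 3 nephritic comparisons, 1 panel per strain and 1 row per gene, grouped by role. Filled points passed an adjusted p of 0.05. Cyp1b1, Cyp2s1, Cyp4f16 and Cyp4v3 lie right of 0 and Cyp2j11 and Cyp2d26 left of 0 in every panel, while Cyp2d9 and Cyp7b1 lie right of 0 in NZB/W and NZM2410 and left of it in NZW/BXSB.

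Members higher in nephritic than in prenephritic kidneys of all 3 strains were Cyp1b1, Cyp2s1, Cyp4f16 and Cyp4v3, 6.06% of the family beside 4.25% of all genes. Cyp1b1, an enzyme of oestrogen and polycyclic hydrocarbon metabolism induced through the aryl hydrocarbon receptor, had NZB/W levels between 7.56 and 8.80 at 36 weeks (median 8.50), against 7.26 to 7.49 at 16 weeks (median 7.35). Every 36-week kidney was above every 16-week one. Its log2 fold change was 1.0 ± 0.15 (adjusted p = 1.02e-05). In NZM2410, nephritic kidneys had 7.07, 7.25, 7.35, 7.67 and 7.76, against 6.52, 6.53, 6.62, 6.94 and 7.03 in prenephritic ones. These groups did not overlap either, and the change was 0.69 ± 0.15 (adjusted p = 0.00446). Nephritic NZW/BXSB kidneys ranged from 8.31 to 9.16 (median 8.77), against 8.0 to 8.52 (median 8.07), overlapping through 1 high prenephritic kidney, with a change of 0.58 ± 0.13 (adjusted p = 0.00882).

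Cyp4v3 is a fatty acid hydroxylase and the mouse counterpart of the human gene mutated in Bietti crystalline dystrophy. Its NZB/W levels ran from 6.80 to 7.53 at 36 weeks (median 7.21), against 6.40 to 6.49 at 16 weeks (median 6.44), with a change of 0.73 ± 0.10 (adjusted p = 4.01e-06). Nephritic NZM2410 kidneys had 7.19, 7.90, 8.13, 8.39 and 8.62, against 6.48, 6.63, 6.72, 6.81 and 6.86 in prenephritic ones. Groups stayed apart in both strains, and the NZM2410 change was 1.35 ± 0.21 (adjusted p = 0.000995). The NZB/W change minus the NZM2410 change was -0.62 ± 0.24 and did not pass the test (adjusted p = 0.196). In NZW/BXSB, Cyp4v3 was between 7.41 and 8.07 in nephritic kidneys (median 7.75), against 7.23 to 7.37 in prenephritic ones (median 7.27), a change of 0.47 ± 0.09 (adjusted p = 0.00374) with no overlap. The NZM2410 rise exceeded that of NZW/BXSB by 0.88 ± 0.23 (adjusted p = 0.0385), a call that was lost on leaving out any 1 of 11 arrays: NZM2410 prenephritic replicates 1 to 5 or nephritic replicates 1, 2, 3 and 5, or NZW/BXSB nephritic replicates 4 and 5 (adjusted p up to 0.0821).

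Cyp4f16, a member of the CYP4F enzymes that hydroxylate leukotrienes and long fatty acids, had levels of 6.86 to 7.35 in 36-week NZB/W kidneys (median 7.12), against 6.55 to 6.86 at 16 weeks (median 6.70). The change was 0.39 ± 0.07 (adjusted p = 0.000108). Nephritic NZM2410 kidneys had 7.41, 7.54, 7.85, 7.91 and 8.01, against 6.94, 7.02, 7.17, 7.17 and 7.19 in prenephritic ones, a change of 0.65 ± 0.11 (adjusted p = 0.00173). In NZW/BXSB it was at 7.54 to 7.97 in nephritic kidneys (median 7.60), against 7.03 to 7.34 in prenephritic ones (median 7.20), a change of 0.49 ± 0.08 (adjusted p = 0.00216). No pair of Cyp4f16 groups overlapped in these 3 comparisons, although the nearest NZB/W arrays of the 36-week and 16-week groups both round to 6.86.

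Cyp2s1, an epithelial P450, had levels of 8.48 to 9.71 at 36 weeks (median 8.81), against 8.41 to 8.86 at 16 weeks in NZB/W (median 8.56), a change of 0.37 ± 0.11 (adjusted p = 0.0106). In NZM2410 the nephritic group had 8.35, 8.77, 9.06, 9.28 and 10.06, against 8.33, 8.35, 8.37, 8.37 and 8.45 in prenephritic ones, and NZW/BXSB kidneys had 8.56 to 9.10 (median 8.79) in the nephritic group, against 8.46 to 8.64 (median 8.49) in the prenephritic group. All 3 pairs overlapped, with the spread mostly in the nephritic group. The changes of 0.73 ± 0.24 in NZM2410 (adjusted p = 0.0413) and 0.28 ± 0.09 in NZW/BXSB (adjusted p = 0.0457) were no longer called without any 1 of 7 of the 10 NZM2410 arrays (prenephritic replicates 1 to 5, nephritic replicates 2 and 3) or 8 of the 12 NZW/BXSB arrays (prenephritic replicates 1 to 5, nephritic replicates 2, 4 and 6), with adjusted p up to 0.0891 and 0.0939.

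**Figure D2:**
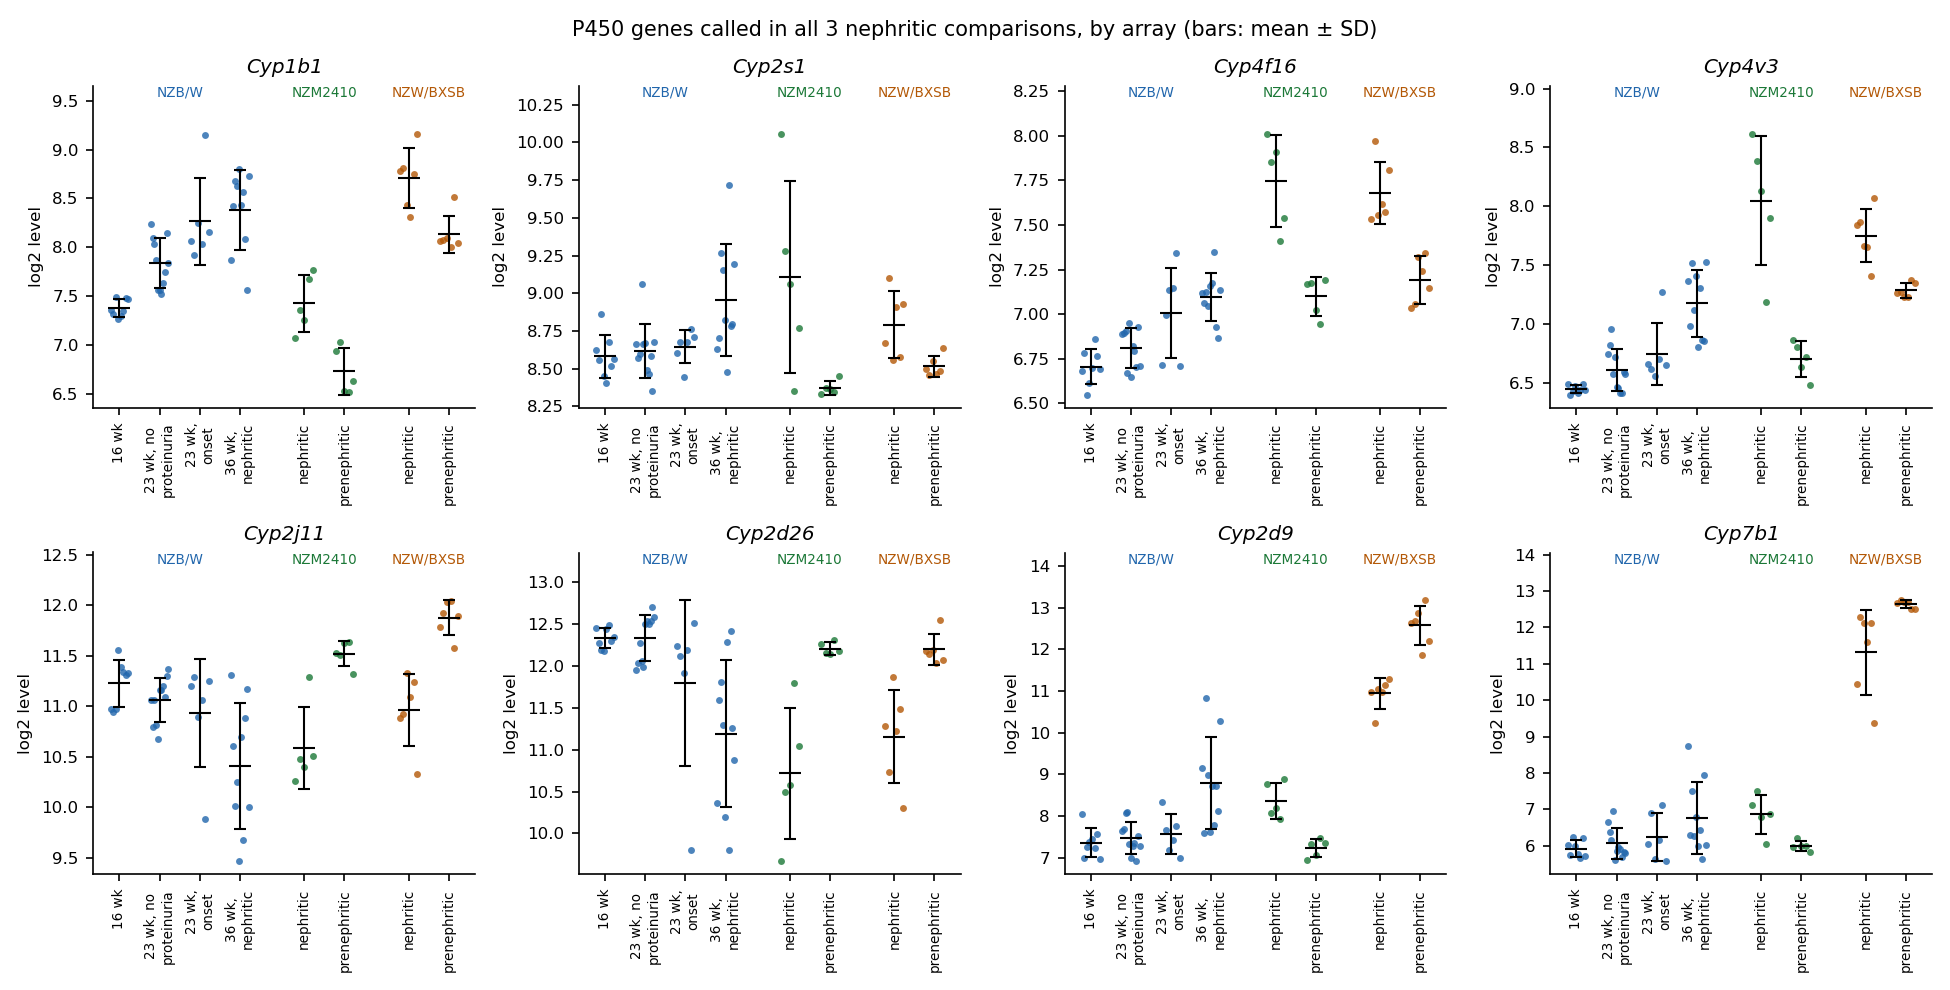
Log2 level (vertical axis) of the 8 P450 genes called in all 3 nephritic comparisons, 1 point per array, by group, with bars for the mean ± SD. Cyp1b1, Cyp4f16 and Cyp4v3 stand higher in nephritic kidneys of each strain and Cyp2j11 and Cyp2d26 lower, and Cyp2d9 and Cyp7b1 are lower in nephritic than prenephritic kidneys in NZW/BXSB alone among these 3 strains. Levels are not comparable between strains.

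Promoters of these 4 members are shown because the genes rose together in each strain. Each is given 5′ to 3′ on the gene's strand, from 250 bases before to 50 bases after a start listed for the gene (build GRCm38.p6), 300 bases long. That start lies at the RefSeq gene boundary for Cyp1b1, Cyp2s1 and Cyp4v3, and inside the gene for Cyp4f16. Capitals mark the core of the aryl hydrocarbon receptor element, GCGTG, on either strand.
Cyp1b1, chr17:79715012-79715311, minus strand: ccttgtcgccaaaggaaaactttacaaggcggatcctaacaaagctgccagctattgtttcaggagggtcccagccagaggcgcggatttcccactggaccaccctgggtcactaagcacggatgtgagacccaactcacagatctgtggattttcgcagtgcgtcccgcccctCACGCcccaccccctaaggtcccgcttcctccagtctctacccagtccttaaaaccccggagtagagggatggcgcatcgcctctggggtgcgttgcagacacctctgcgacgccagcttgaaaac
Cyp2s1, chr7:25816476-25816775, minus strand: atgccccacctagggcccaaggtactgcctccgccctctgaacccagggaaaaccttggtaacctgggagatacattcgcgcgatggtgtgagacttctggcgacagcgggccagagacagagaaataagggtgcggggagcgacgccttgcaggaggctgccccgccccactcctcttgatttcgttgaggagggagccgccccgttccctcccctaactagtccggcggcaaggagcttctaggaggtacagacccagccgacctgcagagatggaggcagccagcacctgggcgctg
Cyp4f16, chr17:32536307-32536606, plus strand: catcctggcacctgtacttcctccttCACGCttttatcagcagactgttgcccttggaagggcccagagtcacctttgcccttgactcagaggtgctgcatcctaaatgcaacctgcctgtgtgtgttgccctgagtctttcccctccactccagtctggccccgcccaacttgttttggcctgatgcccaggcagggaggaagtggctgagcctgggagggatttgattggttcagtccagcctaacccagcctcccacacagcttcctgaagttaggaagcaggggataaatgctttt
Cyp4v3, chr8:45333114-45333413, minus strand: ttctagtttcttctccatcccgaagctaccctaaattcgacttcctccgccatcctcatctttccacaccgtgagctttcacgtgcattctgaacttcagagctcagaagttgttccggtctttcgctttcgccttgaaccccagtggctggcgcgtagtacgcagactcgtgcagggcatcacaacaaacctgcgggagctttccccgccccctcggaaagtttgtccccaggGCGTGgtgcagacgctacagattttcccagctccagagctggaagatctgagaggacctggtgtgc
The core occurred once each in Cyp1b1, Cyp4f16 and Cyp4v3 and not in this window of Cyp2s1. It was found in 32.5% of 27025 promoters of the same length and in 12 of 49 P450 promoters listed (24.5%), so these matches describe the letters and nothing more. The half-site AGGTCA of nuclear receptors (16.0% of promoters) and the STAT sequence TTCNNNGAA (8.5%), searched on both strands as well, occurred in none of these windows. Ahr itself, the receptor, was not called in any of the 3 strains.

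Cyp2j11 and Cyp2d26 fell in all 3 strains, 3.03% of the family beside 3.3% of all genes, a share near that of all genes. Cyp2j11 belongs to the CYP2J enzymes, which make epoxides of arachidonic acid, and its NZB/W levels were 9.46 to 11.31 at 36 weeks (median 10.43), against 10.95 to 11.56 at 16 weeks (median 11.32). Most 36-week kidneys were below all 16-week ones, but 2 of 10 overlapped them, and the change was -0.82 ± 0.20 (adjusted p = 0.00209). In NZM2410, nephritic kidneys had 10.26, 10.40, 10.47, 10.51 and 11.28, against 11.32, 11.51, 11.53, 11.62 and 11.63 in prenephritic ones. The change there was -0.94 ± 0.16 (adjusted p = 0.00155), and in NZW/BXSB it was -0.91 ± 0.15 (adjusted p = 0.00136), with 10.33 to 11.32 in nephritic kidneys (median 11.01), against 11.58 to 12.04 in prenephritic ones (median 11.91). Groups of NZM2410 and NZW/BXSB did not overlap.

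Cyp2d26, a CYP2D enzyme, reached levels of 9.80 to 12.42 in NZB/W at 36 weeks (median 11.28), against 12.18 to 12.49 at 16 weeks (median 12.32). Kidneys at 36 weeks were widely spread, 2 of 10 lay within the 16-week range and 8 below it, and the change was -1.14 ± 0.29 (adjusted p = 0.00345). Adjusting for the 3' minus 5' signal of Gapdh, a measure of RNA integrity that averaged 0.20 ± 0.19 at 36 weeks and 0.02 ± 0.10 at 16 weeks (SD), took that call away (adjusted p = 0.0735). In NZM2410 the nephritic group had 9.67, 10.50, 10.58, 11.05 and 11.79, against 12.14, 12.15, 12.17, 12.27 and 12.30 in prenephritic ones, a change of -1.49 ± 0.29 (adjusted p = 0.0029). In NZW/BXSB it was at 10.31 to 11.87 in nephritic kidneys (median 11.25), against 12.04 to 12.55 in prenephritic ones (median 12.16), a change of -1.04 ± 0.21 (adjusted p = 0.00471). Neither of those pairs overlapped.

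Cyp2d9 and Cyp7b1 were called in all 3 strains but in opposite directions. Opposite calls in at least 2 of the 3 strains were found for these members alone, 3.03% of the family, beside 0.571% of all genes. Cyp2d9 is a testosterone hydroxylase that mouse liver makes mainly in males, and Cyp7b1 hydroxylates oxysterols and steroids and is likewise higher in male mouse liver. Cyp2d9 rose in NZB/W, with 7.58 to 10.84 at 36 weeks (median 8.72), against 6.95 to 8.05 at 16 weeks (median 7.31), a change of 1.42 ± 0.31 (adjusted p = 0.000837). It rose in NZM2410, where nephritic kidneys had 7.94, 8.06, 8.19, 8.75 and 8.90, against 6.95, 7.07, 7.31, 7.35 and 7.47 in prenephritic ones, a change of 1.14 ± 0.18 (adjusted p = 0.00106). It fell in NZW/BXSB, with 10.23 to 11.28 in nephritic kidneys (median 11.01), against 11.85 to 13.18 in prenephritic ones (median 12.66), a change of -1.63 ± 0.22 (adjusted p = 0.000513). Only the NZB/W groups overlapped among these. The change in NZW/BXSB differed from the others, the NZB/W change minus it being 3.05 ± 0.38 (adjusted p = 3.1e-06) and the NZM2410 change minus it 2.77 ± 0.28 (adjusted p = 4.74e-06).

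Cyp7b1 was at 5.63 to 8.74 in NZB/W kidneys at 36 weeks (median 6.36), against 5.67 to 6.25 at 16 weeks (median 5.88). High values came from part of the 36-week group, the ranges overlapped, and the change was 0.84 ± 0.29 (adjusted p = 0.0318). That call was lost without any 1 of 6 arrays, 16-week replicates 5, 6 and 8 and 36-week replicates 1, 3 and 9 (adjusted p up to 0.0614), and with the Gapdh 3' minus 5' signal as a covariate (adjusted p = 0.578). In NZM2410, nephritic kidneys had 6.04, 6.78, 6.88, 7.12 and 7.51, against 5.82, 5.96, 5.99, 6.01 and 6.21 in prenephritic ones, overlapping through 1 low nephritic kidney, a change of 0.87 ± 0.21 (adjusted p = 0.00993). In NZW/BXSB the nephritic kidneys ranged from 9.37 to 12.28 (median 11.86), against 12.49 to 12.75 (median 12.69) in prenephritic ones. These groups did not overlap, and the change was -1.32 ± 0.42 (adjusted p = 0.0418), lost without any 1 of 8 of the 12 arrays (prenephritic replicates 1 to 6, nephritic replicates 1 and 4; adjusted p up to 0.0864). The NZB/W change minus that of NZW/BXSB was 2.16 ± 0.51 (adjusted p = 0.0159) and the NZM2410 change minus it 2.18 ± 0.47 (adjusted p = 0.0121).

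Beside these opposite changes stands a difference between the tables in sex-linked genes. Xist, expressed from the inactive X chromosome of females, was at 9.83 to 11.83 on every NZB/W and NZM2410 array and not above the authors' baseline in NZW/BXSB, where it was at 4.77 to 5.01. Ddx3y, a Y-linked gene, was at 8.20 to 9.27 in nephritic and 9.10 to 9.73 in prenephritic NZW/BXSB kidneys and not above baseline in the other two tables. In nephritic against prenephritic NZW/BXSB kidneys Ddx3y itself fell by 0.64 on the log2 scale (adjusted p = 0.0159), while the Y-linked Uty and Eif2s3y were not called, with changes of 0.09 ± 0.07 (adjusted p = 0.438) and 0.0020 ± 0.09 (adjusted p = 0.991). Such Xist and Ddx3y levels are those of males in NZW/BXSB and of females in NZB/W and NZM2410, although no label states sex. Strain and sex cannot be told apart in these samples, and the part of sex in the opposite changes was not tested.

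The CYP2D subfamily had 7 members, whose neighbouring genes are similar in sequence. In NZW/BXSB, 5 of the 7 fell (71.4%, beside 8.73% of all genes) and none rose, and the median log2 fold change of the 7 was -0.76. Hepatocyte markers averaged 7.99 to 8.17 in nephritic NZW/BXSB kidneys, against 8.17 to 8.34 in prenephritic ones, 1 of 6 having fallen, and their part in the CYP2D falls was not tested. In NZB/W and in NZM2410, 1 rose (Cyp2d9) and 1 fell (Cyp2d26), with medians of -0.10 and -0.19. That is 28.6% called in both, beside 26.3% and 25.3% of all genes. Cyp2d12 had the largest fall of any member in NZW/BXSB, with levels of 5.85 to 8.94 in nephritic kidneys (median 7.07), against 9.92 to 10.87 in prenephritic ones (median 10.38). The groups were about 3 log2 units apart without overlap, a change of -3.12 ± 0.43 (adjusted p = 0.000609), or 8.67-fold lower. Its changes of -0.48 ± 0.23 in NZB/W and -0.24 ± 0.16 in NZM2410 were not called, and those changes exceeded the NZW/BXSB one by 2.64 ± 0.49 (adjusted p = 0.00412) and 2.87 ± 0.45 (adjusted p = 0.00241).

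Cyp2d10 was below baseline in NZB/W and NZM2410. In NZW/BXSB it was at 4.90 to 5.21 in nephritic kidneys (median 4.96), against 5.25 to 5.74 in prenephritic ones (median 5.42), apart without overlap and changed by -0.45 ± 0.09 (adjusted p = 0.00345). Cyp2d22 was the fifth member to fall in NZW/BXSB, and Cyp2d13 and Cyp2d34 were below baseline in every table and not called.

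Promoters of Cyp2d9, Cyp2d10 and Cyp2d26 are shown to compare subfamily members that rose, did not pass the test or fell in NZB/W and NZM2410. Capitals mark the TATA sequence TATAAA on either strand and the hepatocyte nuclear factor half-site GTTAAT on either strand, and the window and build are those given above. The listed start lies at the RefSeq gene boundary for Cyp2d9 and inside the gene for Cyp2d10 and Cyp2d26.
Cyp2d9, chr15:82452127-82452426, plus strand: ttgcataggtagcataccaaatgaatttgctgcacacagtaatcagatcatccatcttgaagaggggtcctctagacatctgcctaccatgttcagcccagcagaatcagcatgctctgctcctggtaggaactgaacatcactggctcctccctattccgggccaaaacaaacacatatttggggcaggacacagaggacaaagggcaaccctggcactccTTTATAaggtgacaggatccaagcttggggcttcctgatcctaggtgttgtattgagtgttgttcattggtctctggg
Cyp2d10, chr15:82407145-82407444, minus strand: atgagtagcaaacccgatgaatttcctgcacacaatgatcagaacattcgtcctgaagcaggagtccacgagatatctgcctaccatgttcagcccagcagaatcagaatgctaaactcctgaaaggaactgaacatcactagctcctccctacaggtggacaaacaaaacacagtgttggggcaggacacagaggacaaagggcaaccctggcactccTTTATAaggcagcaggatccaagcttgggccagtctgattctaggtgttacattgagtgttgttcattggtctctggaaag
Cyp2d26, chr15:82794196-82794495, minus strand: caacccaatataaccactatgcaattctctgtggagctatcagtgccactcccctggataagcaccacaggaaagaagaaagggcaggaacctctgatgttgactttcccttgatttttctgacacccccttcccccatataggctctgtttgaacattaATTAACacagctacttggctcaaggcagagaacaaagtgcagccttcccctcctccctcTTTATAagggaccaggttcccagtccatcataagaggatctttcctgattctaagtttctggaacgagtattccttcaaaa
Aligned end to end, the Cyp2d9 and Cyp2d10 windows had 83.2% identical positions, while Cyp2d26 had 53.5% with Cyp2d9 and 54.8% with Cyp2d10. In all 3 the exact letters TATAAA were matched on the strand opposite the gene's, so that the match reads TTTATA as printed. The same stretch holds TATAAG on the gene's own strand, letters that the search did not count. TATAAA on either strand was found in 14.2% of all promoters and in 18 of 49 P450 promoters (36.7%). The half-site was found in Cyp2d26 alone among these 3, again on the opposite strand. On either strand it occurred in 7.2% of all promoters and in 1 of 49 P450 promoters. Probe sequences were not used here, so the share of signal that CYP2D probes take from each other's transcripts was not tested, and values of single CYP2D genes are uncertain to that extent.

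Vitamin D metabolism has 3 members here. Cyp24a1, which breaks down the active hormone, rose in NZM2410 and was not called elsewhere. Cyp27b1, which makes the active hormone in the proximal tubule, was not called in any comparison. Nephritic NZM2410 kidneys had Cyp24a1 levels of 10.10, 11.39, 11.65, 11.90 and 11.94, against 8.50, 8.51, 9.10, 9.24 and 9.24 in prenephritic ones. All nephritic values were above all prenephritic ones, and the change of 2.48 ± 0.31 (adjusted p = 0.000334), 5.57-fold, was the largest rise of any member in that strain. In NZB/W, Cyp24a1 was at 8.27 to 10.86 at 36 weeks (median 9.14), against 6.76 to 9.79 at 16 weeks (median 9.17), an overlapping pair with a change of 0.68 ± 0.37 (adjusted p = 0.192). In NZW/BXSB it was at 9.39 to 13.06 in nephritic kidneys (median 10.59), against 9.38 to 11.39 in prenephritic ones (median 10.46), a change of 0.52 ± 0.58 (adjusted p = 0.552). The NZB/W change minus the NZM2410 change was -1.80 ± 0.49 (adjusted p = 0.0432), a call lost on leaving out any 1 of 21 of 28 arrays (adjusted p up to 0.0953). It was kept on leaving out 16-week replicates 1 or 3, 36-week replicates 3, 7 or 10, or NZM2410 nephritic replicates 2 or 4. The NZM2410 change minus the NZW/BXSB change was 1.95 ± 0.66 and did not pass the test (adjusted p = 0.0889).

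**Figure D3:**
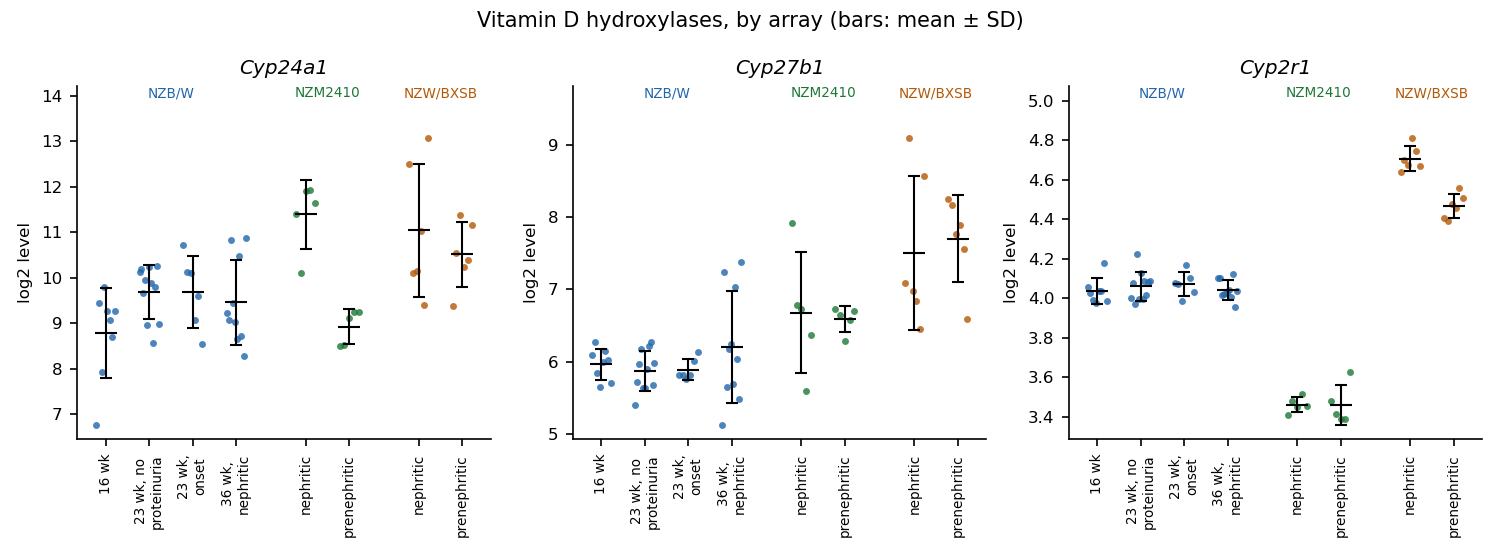
Log2 level (vertical axis) of the 3 vitamin D hydroxylase genes, 1 point per array, by group, with bars for the mean ± SD. Nephritic NZM2410 kidneys hold Cyp24a1 levels between 10.10 and 11.94, all above the prenephritic ones, while Cyp27b1 groups overlap in every strain. Levels are not comparable between strains.

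Cyp27b1 levels spread more widely in nephritic than in prenephritic kidneys. They were 5.13 to 7.38 at 36 weeks (median 6.11), against 5.65 to 6.27 at 16 weeks (median 6.01) in NZB/W. Nephritic NZM2410 kidneys had 5.60, 6.37, 6.73, 6.78 and 7.92, against 6.29, 6.58, 6.65, 6.70 and 6.73 in prenephritic ones, and NZW/BXSB kidneys had 6.45 to 9.09 in the nephritic group (median 7.03), against 6.59 to 8.26 in the prenephritic group (median 7.83). The 95% intervals of its log2 fold change were -0.18 to 0.67 in NZB/W, -0.60 to 0.78 in NZM2410 kidneys and -1.14 to 0.74 in NZW/BXSB, so changes within those bounds were not excluded. Cyp2r1, which carries out the first hydroxylation of vitamin D and is mainly a liver enzyme, was below baseline in every table. It was nonetheless called in NZW/BXSB, with 4.64 to 4.81 in nephritic kidneys (median 4.69), against 4.39 to 4.56 in prenephritic ones (median 4.47), a change of 0.24 ± 0.05 (adjusted p = 0.00338). Values below baseline are background signal for the most part, and no level of expression is read from them.

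The vitamin D list also held 7 genes that bring the hormone's precursor to these enzymes or act beside them. Of these 7, 5 fell in NZB/W at 36 against 16 weeks, 5 in NZM2410 and 2 in NZW/BXSB, and none rose in these 3 comparisons. Falls thus made up 71.4%, 71.4% and 28.6%, beside 15.3%, 13.8% and 8.73% of all genes. Kl, which encodes Klotho, the co-receptor of the phosphate hormone FGF23, fell by 1.29 on the log2 scale in NZB/W (SE 0.20, adjusted p = 2.23e-05) and by 1.76 in NZM2410 (SE 0.20, adjusted p = 0.000189). Cubn, part of the uptake receptor for vitamin D binding protein, changed by -0.78 ± 0.18 in NZB/W, -0.93 ± 0.14 in NZM2410 kidneys and -0.32 ± 0.07 in NZW/BXSB (adjusted p = 0.00122, 0.000796 and 0.00617). Lrp2, its megalin partner, changed by -0.97 ± 0.19 in NZB/W (adjusted p = 0.000329) and -1.02 ± 0.17 in NZM2410 (adjusted p = 0.00142), and Pth1r, the parathyroid hormone receptor, by -0.61 ± 0.14 (adjusted p = 0.00157) and -0.63 ± 0.17 (adjusted p = 0.0152). Lrp2 is also among the proximal tubule markers.

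Of the 13 CYP2C and CYP2J members, 1 rose and 3 fell in NZB/W, 1 rose and 2 fell in NZM2410, and 1 fell in NZW/BXSB. That makes 30.8%, 23.1% and 7.69% called, beside 26.3%, 25.3% and 20.1% of all genes. Cyp2c44 (Cyp2c23 in RefSeq), an arachidonic acid epoxygenase of mouse kidney, was at 6.15 to 7.08 in NZB/W at 36 weeks (median 6.63), against 7.10 to 7.64 at 16 weeks (median 7.23). It did not overlap between those groups and changed by -0.68 ± 0.12 (adjusted p = 8.88e-05). Nephritic NZM2410 kidneys had 6.50, 6.65, 6.78, 6.93 and 7.33, against 7.35, 7.54, 7.66, 7.67 and 7.80 in prenephritic ones, a change of -0.77 ± 0.14 (adjusted p = 0.00202). NZW/BXSB kidneys did not show this, with 8.19 to 8.61 in the nephritic group (median 8.30), against 7.98 to 8.54 in the prenephritic group (median 8.32). The change in NZB/W minus that in NZW/BXSB was -0.76 ± 0.16 (adjusted p = 0.004), and in NZM2410 minus NZW/BXSB it was -0.84 ± 0.17 (adjusted p = 0.00769).

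Cyp2j5, an epoxygenase abundant in mouse proximal tubule, fell in NZB/W, with 10.49 to 11.91 at 36 weeks (median 11.39), against 11.78 to 12.24 at 16 weeks (median 12.03), a change of -0.71 ± 0.17 (adjusted p = 0.00212). In the other strains it was not called. Cyp2j13 went the other way from Cyp2j5 and Cyp2j11. Nephritic NZM2410 kidneys had Cyp2j13 levels of 5.05, 6.55, 6.57, 6.76 and 6.81, against 4.35, 4.37, 4.45, 4.50 and 4.59 in prenephritic ones, a change of 1.90 ± 0.28 (adjusted p = 0.000619) with 1 nephritic kidney well below the other 4. In NZB/W it was at 5.14 to 6.41 at 36 weeks (median 5.42), against 5.08 to 5.26 at 16 weeks (median 5.16), a change of 0.31 ± 0.11 (adjusted p = 0.0302) that was lost without 16-week replicate 4 or 6 (adjusted p up to 0.0548). NZW/BXSB levels were 11.25 to 12.28 in nephritic kidneys (median 11.89), against 11.18 to 12.42 in prenephritic ones (median 11.54), and overlapped widely. The NZM2410 change differed from both, NZB/W minus NZM2410 being -1.59 ± 0.30 (adjusted p = 0.0112) and NZM2410 minus NZW/BXSB 1.81 ± 0.36 (adjusted p = 0.0056). Without the arrays that carried high adrenal cortex markers the first of these had an adjusted p of 0.0759.

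Among 11 other enzymes of arachidonic acid metabolism, 2 fell in NZB/W, 1 rose and 1 fell in NZM2410, and 1 rose and 1 fell in NZW/BXSB. That is 18.2% called in each strain, beside 26.3%, 25.3% and 20.1% of all genes. Ephx2, the soluble epoxide hydrolase that inactivates the epoxides made by CYP2C and CYP2J enzymes, was the one that fell in every strain, by 0.47, 0.36 and 0.72 on the log2 scale (adjusted p = 0.0281, 0.0394 and 0.00435). Tbxas1, thromboxane synthase, changed by -0.32 ± 0.10 in NZB/W (adjusted p = 0.0198), Ptges, a prostaglandin E synthase, by 0.43 ± 0.09 in NZM2410 (adjusted p = 0.0048), and Pla2g4a, the phospholipase that releases arachidonic acid, by 0.46 ± 0.12 in NZW/BXSB (adjusted p = 0.014).

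The 11 CYP4 members, fatty acid hydroxylases, split in each strain, with 2 rises and 1 fall in NZB/W, 3 and 1 in NZM2410 kidneys and 2 and 4 in NZW/BXSB. Those are 27.3%, 36.4% and 54.5% called, beside 26.3%, 25.3% and 20.1% of all genes. Cyp4b1, which also activates lung and kidney toxicants, rose in NZM2410, where nephritic kidneys had 11.91, 12.28, 12.57, 12.92 and 13.09, against 10.36, 10.56, 10.76, 11.01 and 11.09 in prenephritic ones. The groups were clearly apart and the change was 1.80 ± 0.21 (adjusted p = 0.000229). It was at 11.13 to 13.01 in NZB/W at 36 weeks (median 12.24), against 11.75 to 12.53 at 16 weeks (median 12.37), and at 13.81 to 14.35 in nephritic NZW/BXSB kidneys (median 14.16), against 14.22 to 14.42 in prenephritic ones (median 14.28). Neither of these pairs was called. NZB/W minus NZM2410 was -1.96 ± 0.28 (adjusted p = 0.000153), and NZM2410 minus NZW/BXSB was 1.98 ± 0.23 (adjusted p = 0.000337).

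Falls among the CYP4 members were of Cyp4f14, a leukotriene hydroxylase, in NZB/W (-0.64 ± 0.12, adjusted p = 0.000138) and NZW/BXSB, of Cyp4f13 in NZM2410 (-0.26 ± 0.07, adjusted p = 0.0146) and NZW/BXSB, and of Cyp4a31 and Cyp4f15 in NZW/BXSB. Cyp4a31, of the arachidonic acid hydroxylases regulated by the receptor PPARα, changed by -1.0 ± 0.32 there, with overlapping groups (adjusted p = 0.0405). Leaving out any 1 of 9 of its 12 arrays ended that call (prenephritic replicates 1, 2, 3 and 5, nephritic replicates 1 to 5; adjusted p up to 0.0877). The Cyp4f13 call in NZM2410 was lost without the 2 arrays with high adrenal cortex markers (adjusted p = 0.0633). Cyp4a10 and Cyp4a14, other targets of that receptor, were not called in any comparison.

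**Figure D4:**
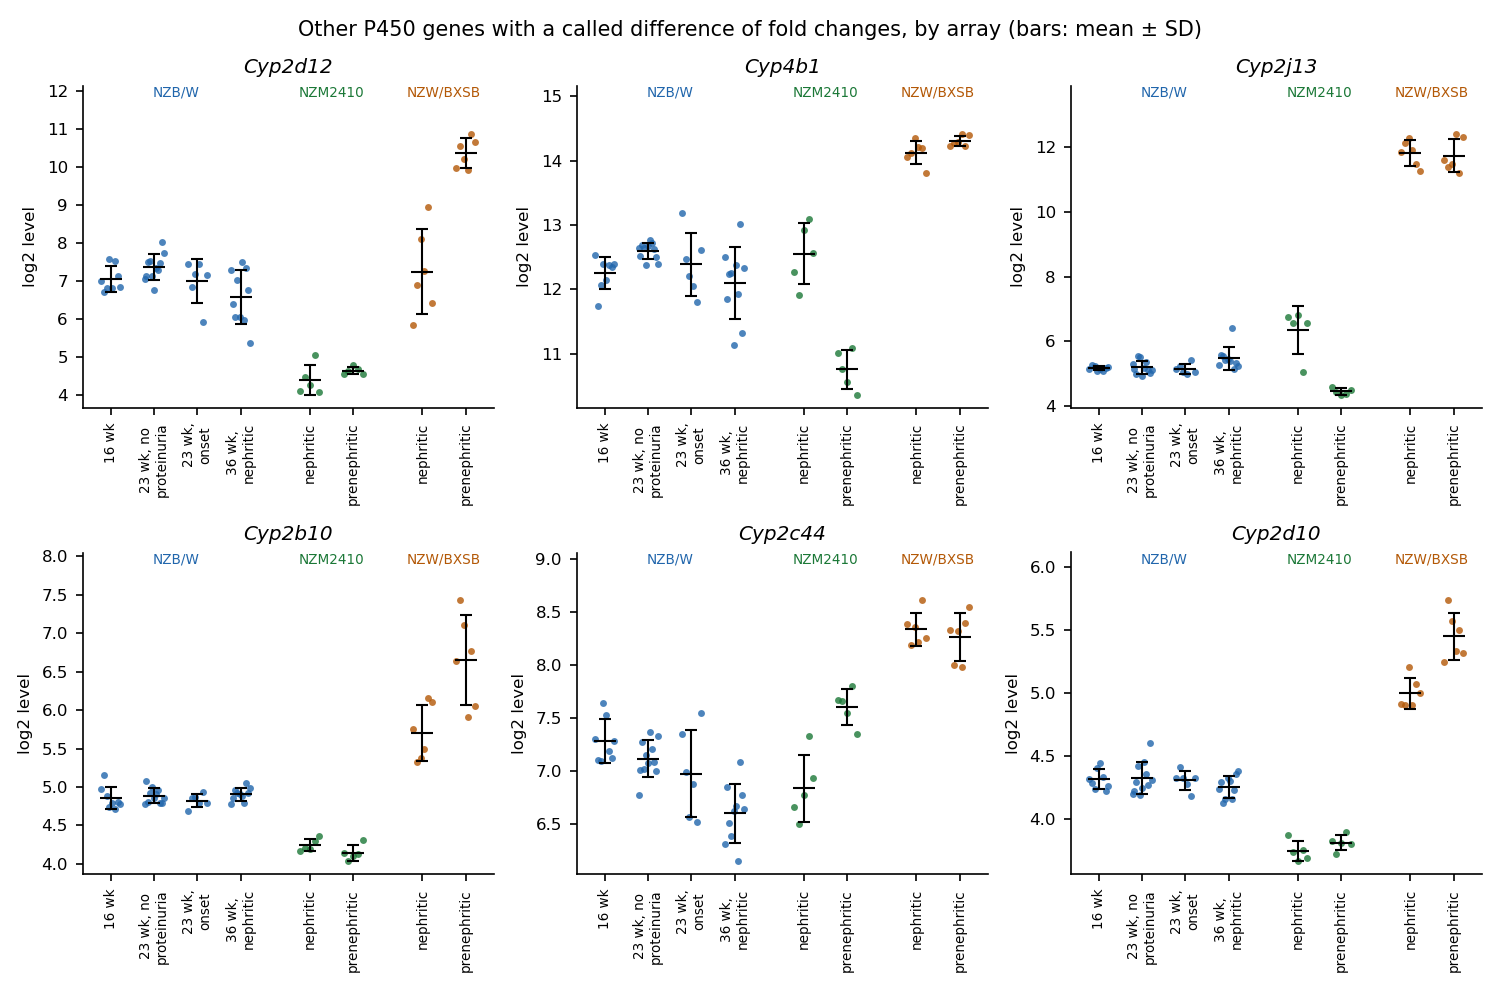
Log2 level (vertical axis) of 6 further P450 genes with a called difference of fold changes between 2 strains, 1 point per array, by group, with bars for the mean ± SD. Cyp2d12, Cyp2b10 and Cyp2d10 are lower in nephritic than in prenephritic NZW/BXSB kidneys, Cyp4b1 and Cyp2j13 are higher in nephritic NZM2410 kidneys, and Cyp2c44 is lower in nephritic NZB/W and NZM2410 kidneys. Cyp2b10 and Cyp2d10 were not above baseline in NZB/W and NZM2410. Levels are not comparable between strains.

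Other CYP2 members, 9 in number, gave 1 rise in each strain (Cyp2s1, above) and falls of Cyp2e1 in NZM2410 and of Cyp2b10, Cyp2e1 and Cyp2f2 in NZW/BXSB. In NZB/W, NZM2410 and NZW/BXSB 11.1%, 22.2% and 44.4% were called, beside 26.3%, 25.3% and 20.1% of all genes. Cyp2b10, a target of the xenobiotic receptor CAR, was below baseline in NZB/W and NZM2410. In NZW/BXSB it was at 5.32 to 6.16 in nephritic kidneys (median 5.62), against 5.91 to 7.43 in prenephritic ones (median 6.70), an overlapping pair that changed by -0.95 ± 0.25 (adjusted p = 0.0172). Cyp2f2, known from lung airway cells, changed by -1.15 ± 0.18 in NZW/BXSB (adjusted p = 0.00108), without overlap. Cyp2e1, the ethanol-oxidizing P450, changed by -0.61 ± 0.20 in NZM2410 (adjusted p = 0.0477), a call lost without any 1 of prenephritic replicates 1, 2, 4 and 5 or nephritic replicates 2, 3 and 5 (adjusted p up to 0.119).

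Of 3 CYP1 members, 1 was called in each strain (33.3%). Among 5 CYP3 members 20%, 0% and 20% were called in NZB/W, NZM2410 and NZW/BXSB. Over all genes the shares were 26.3%, 25.3% and 20.1%. Cyp1a1 and Cyp1a2, the other aryl hydrocarbon receptor targets of the family, passed the test in no comparison, unlike Cyp1b1. Of the 5 CYP3A members, drug and steroid hydroxylases of liver and gut, Cyp3a44 rose in NZB/W by 0.56 ± 0.20 (adjusted p = 0.0341) and Cyp3a13 in NZW/BXSB by 0.24 ± 0.06 (adjusted p = 0.0176). The Cyp3a44 call was lost without any 1 of 9 of 18 arrays, 16-week replicates 4 to 8 and 36-week replicates 2 to 5 (adjusted p up to 0.0813).

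Steroid hormone synthesis was represented by 6 members, none of them called in any of the 6 comparisons, where 0.0182% to 26.3% of all genes were called. Cyp11a1, which starts steroid synthesis by cutting the cholesterol side chain, was at 4.30 to 10.67 in the 11 non-proteinuric 23-week kidneys, with 7 arrays at 8.18 or above and the other 4 at 5.15 or below. The 6 onset kidneys had 4.83 to 9.13, and 16-week kidneys 5.20 to 6.67. In NZM2410, nephritic kidneys had 4.82, 5.15, 5.29, 5.36 and 8.81, against 4.97, 5.09, 5.16, 5.24 and 10.39 in prenephritic ones, and 1 array in each NZW/BXSB group was high likewise (10.10 in the nephritic and 9.43 in the prenephritic group). Cyp11b1 and Cyp21a1, which make corticosterone and its precursors, spread likewise over the 23-week non-proteinuric arrays (5.13 to 11.49 and 5.23 to 12.08). Cyp11b2, which makes aldosterone, was among the 6. Adrenal cortex markers (Star, Mc2r, Nr5a1, Hsd3b1, Akr1b7 and Mrap) were spread as well, and their mean level on the 23-week non-proteinuric arrays ran from 5.57 to 9.62, against 6.34 to 7.35 at 16 weeks. Cyp17a1, which the adult mouse adrenal lacks, stayed between 5.43 and 5.68 on those 23-week arrays, and Cyp19a1, aromatase, was below baseline in every table.

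Without the 11 arrays whose mean adrenal cortex marker level exceeded 8, a choice made after the data were seen, the change of Cyp11a1 at 23 against 16 weeks was -0.87 ± 0.49, in place of 1.48 ± 0.71 with all arrays (adjusted p = 0.578 and 0.82), and that of Cyp21a1 was -0.80 ± 0.58 in place of 1.71 ± 0.78. None of the 6 steroid members was called in any comparison without those arrays either. The cut at 8 left out 6 of the 11 non-proteinuric 23-week arrays. Replicate 1 of that group, with a mean adrenal cortex marker level of 7.99, stayed in. The count of all members called became 12 in NZB/W at 36 against 16 weeks (18.2%, beside 23.4% of all genes), 11 in NZM2410 (16.7%, beside 17.5%) and 21 in NZW/BXSB (31.8%, beside 18.5%). Cyp2f2 also spread over the 23-week non-proteinuric arrays, from 5.46 to 9.43. Its fall in NZW/BXSB kept its call without those arrays.

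**Figure D5:**
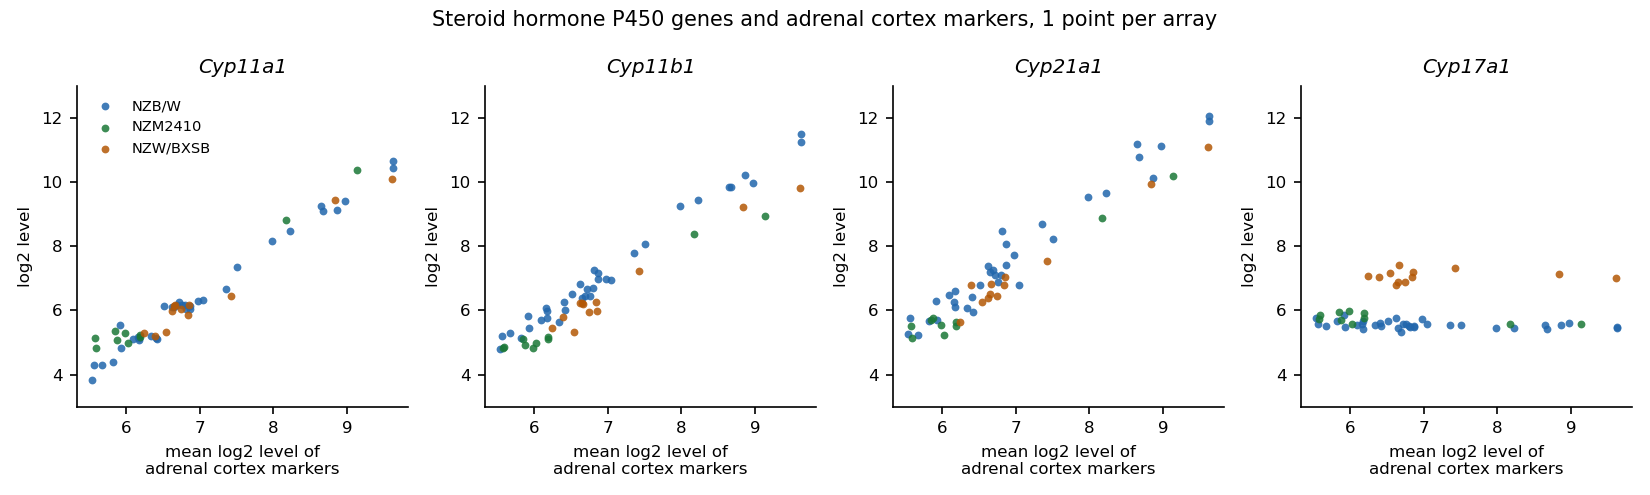
Log2 level (vertical axis) of Cyp11a1, Cyp11b1, Cyp21a1 and Cyp17a1 against the mean log2 level of 6 adrenal cortex markers (horizontal axis), 1 point per array, coloured by strain. Cyp11a1, Cyp11b1 and Cyp21a1 are high on the arrays with high marker levels, up to 10.67 for Cyp11a1, while Cyp17a1 is flat within each strain.

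Bile acid and cholesterol hydroxylases numbered 6 and, apart from Cyp7b1, gave 1 call. With Cyp7b1 counted, 16.7%, 16.7% and 33.3% were called in NZB/W, NZM2410 and NZW/BXSB, beside 26.3%, 25.3% and 20.1% of all genes. Cyp27a1, a mitochondrial hydroxylase of cholesterol and bile acid precursors, was at 9.79 to 10.30 in nephritic NZW/BXSB kidneys, against 10.31 to 10.76 in prenephritic ones, a change of -0.58 ± 0.10 (adjusted p = 0.00267). In NZB/W and NZM2410 its changes of -0.15 ± 0.13 and -0.16 ± 0.08 did not pass the test. Cyp7a1, the rate-limiting liver enzyme of bile acid synthesis, was below baseline throughout, and Cyp8b1, Cyp39a1 and Cyp46a1 had log2 changes between -0.11 and 0.09 in the 3 nephritic comparisons, none of them called. Retinoic acid is cleared by Cyp26a1 and Cyp26b1. Cyp26a1 changed by 0.22 ± 0.15 in NZB/W, -0.04 ± 0.11 in NZM2410 kidneys and -0.05 ± 0.06 in NZW/BXSB, and Cyp26b1 by -0.20 ± 0.28, -0.34 ± 0.26 and -0.47 ± 0.16 (adjusted p = 0.668, 0.411 and 0.0514), with no call.

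Within the NZB/W time course, the question was at which stage members changed. No member was called at 23 weeks without proteinuria against 16 weeks, where 0.0182% of all genes were called. An unadjusted p under 0.05 was found there for 7 of the 66 members, beside 963 of the 16475 genes. Of those 7 members, 3 belonged to the steroid hormone list. At onset against 23 weeks without proteinuria no member was called either, where 2.09% of all genes were called. There 7 of the 66 members had an unadjusted p under 0.05, beside 3202 of the 16475 genes. These comparisons share the non-proteinuric arrays. At 36 weeks against onset 3 members were called, 2 higher and 1 lower, beside 2.32% of all genes (0.571% higher and 1.75% lower). Cyp2d9 changed by 1.22 ± 0.34 (adjusted p = 0.0453), Cyp4v3 by 0.43 ± 0.11 (adjusted p = 0.0328) and Cyp2j5 by -0.67 ± 0.18 (adjusted p = 0.0461). All 3 calls were fragile: on leaving out 1 array between 0 and 8 members were called. None was called with an adjustment for the Gapdh signal (0.668% of all genes called) or for adrenal cortex markers (0.115% of all genes called). Cyp2d9 lost its call without any 1 of onset replicates 1, 2, 3, 4 and 6 or 36-week replicates 1, 3, 4 and 6, Cyp4v3 without the same onset arrays or 36-week replicates 4 and 5, and Cyp2j5 without the same onset arrays or 36-week replicates 3, 4, 5 and 7 (adjusted p up to 0.118, 0.101 and 0.131).

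Median levels over the 4 stages are given for 3 called members. Cyp1b1 had medians of 7.35 at 16 weeks, 7.84 at 23 weeks without proteinuria, 8.11 at onset and 8.50 at 36 weeks, and the steps between neighbouring stages were not called. Medians of Cyp2d26 over the same stages were 12.32, 12.50, 12.15 and 11.28, and those of Cyp2d9 were 7.31, 7.36, 7.55 and 8.72. Kidneys at onset were alike in Cyp2d26, at 11.91 to 12.51, apart from 1 at 9.81. That array, onset replicate 5, also held the highest Cyp1b1 level of its group (9.15) and the lowest Cyp2j11 level (9.88). Its mean proximal tubule marker level was 10.34, against 11.49 to 11.75 on the other onset arrays.

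Electron donors of the P450 system were called in each strain. Of 8, 5 fell in NZB/W at 36 against 16 weeks, 3 fell and 1 rose in NZM2410, and 1 fell and 2 rose in NZW/BXSB. Calls thus made up 62.5%, 50% and 37.5%, beside 26.3%, 25.3% and 20.1% of all genes. The difference of fold changes was called for 1 of the 8 in NZB/W minus NZM2410 (12.5%, beside 1.72% of all genes). In NZB/W minus NZW/BXSB it was called for 0 of the 8, beside 5.77% of all genes. Por, the oxidoreductase that serves all microsomal members, changed by -0.64 ± 0.14 in NZB/W (adjusted p = 0.00113) and by -0.90 ± 0.10 in NZM2410 (adjusted p = 0.000189), and was not called in NZW/BXSB. NZM2410 minus NZW/BXSB was -0.71 ± 0.13 for Por (adjusted p = 0.00264). Fdx1, the ferredoxin of mitochondrial P450s such as Cyp27b1, changed by -0.59 ± 0.15 in NZB/W (adjusted p = 0.00305) and -0.65 ± 0.11 in NZM2410 (adjusted p = 0.00134). Cyb5b, a cytochrome b5, changed by -0.63 ± 0.12 in NZB/W (adjusted p = 0.000308), and Cyb5r3, a reductase of cytochrome b5, by 0.48 ± 0.10 in NZM2410 (adjusted p = 0.0034) and 0.31 ± 0.08 in NZW/BXSB (adjusted p = 0.0192).

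Among 16 transcription factors known to control P450 genes, 1 rose and 5 fell in NZB/W, 5 fell in NZM2410 and 2 fell in NZW/BXSB. Shares called were 37.5%, 31.2% and 12.5%, beside 26.3%, 25.3% and 20.1% of all genes. Hnf4a, a factor of proximal tubule and liver, changed by -0.59 ± 0.14 in NZB/W (adjusted p = 0.00194) and -0.79 ± 0.13 in NZM2410 (adjusted p = 0.0013). Rxra, the partner of the vitamin D, PXR and CAR receptors, fell in every strain, by 0.21, 0.30 and 0.26 on the log2 scale (adjusted p = 0.0174, 0.0165 and 0.0228). Nr1h4, the bile acid receptor FXR, changed by -0.48 ± 0.15 in NZB/W (adjusted p = 0.0154) and -0.53 ± 0.11 in NZM2410 (adjusted p = 0.00349). Cebpb, an acute-phase factor, was the 1 that rose, by 0.76 ± 0.18 in NZB/W (adjusted p = 0.00165).

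Members called in none of the 6 comparisons numbered 39. Beside those named above they were Cyp20a1, whose function is not established, Cyp2a12, Cyp2b9, Cyp2b13, Cyp2b19 and Cyp2u1, the CYP2C genes Cyp2c29, Cyp2c37, Cyp2c38, Cyp2c39, Cyp2c50, Cyp2c55 and Cyp2c70, Cyp2j6 and Cyp2j9, Cyp3a11, Cyp3a16 and Cyp3a25, and Cyp4f18 and Cyp4f39. All 13 called members in NZB/W and all 14 in NZM2410 were above the authors' baseline in that strain, and in NZW/BXSB 20 of 21 were, Cyp2r1 being the other.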

How the data were processed

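Affymetrix arrays of 57 whole kidneys were analysed, 1 sample per array. The authors deposited log2 expression values, 1 per gene, in a table for each strain, and RMA is named per the submitters' processing notes. The array design and genome build are not given in the sources used here. Control probes (64 rows) were left out, and no other values were changed.

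Cytochrome P450 genes were taken by symbol, and all 66 matched RefSeq. P450 genes whose symbols have another form (Cyp51, Cyp4a12a, Ptgis and Tbxas1) fell outside the rule. Members, gene lists and tests were chosen with earlier results of these data known. Each strain was fitted with limma 3.58.1 (R 4.3.3, lmFit and eBayes), 1 mean per group and all 4 NZB/W groups in 1 fit. Differences of fold changes between strains were tested as the difference over its combined error. P-values were adjusted by Benjamini and Hochberg over 16475 genes, with a threshold of 0.05, and the procedure was tested on simulated data. Precision is limited by the number of arrays, 5 to 11 per group.

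Values are given for up to 8 rises and 8 falls by size in each comparison, for members called in all 3 strains or in a difference of fold changes, and for the vitamin D, steroid, retinoic acid and bile acid members. Alternatives were quantile normalization, leaving out the 25% of genes with the lowest mean, array weights, a block for replicate number or for the shared part of the sample title, covariates (Gapdh 3' minus 5' signal, spiked controls, adrenal cortex markers), 2-group fits and leaving out 1 array at a time. Protein sequences were not used here.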

Additional observations from a re-analysis of the deposited data

Results flagged for a closer look

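Single arrays stood far from the rest of their group in 14 of 126 member and group pairs tested over 18 members, where chance flags about 1 in 20. Onset replicate 5 in NZB/W did so for 5 genes, with the highest Cyp1b1 (9.15) and Cyp4v3 (7.27) of its group and the lowest Cyp2d26 (9.81), Cyp2j11 (9.88) and Cyp2j5 (10.95). Its mean leukocyte marker level was 8.71 and its mean proximal tubule marker level 10.34, and their part was not tested. NZM2410 nephritic replicate 4 had the highest Cyp2j11 (11.28) and Cyp2j5 (11.77) and the lowest Cyp2j13 (5.05) of its group. Its mean proximal tubule marker level was 11.77, against 10.70 to 11.13 on the other 4 nephritic arrays. In NZW/BXSB, prenephritic replicate 5 was highest for Cyp1b1 (8.52) and Cyp2d26 (12.55), nephritic replicate 2 lowest for Cyp2d9 (10.23) and nephritic replicate 6 lowest for Cyp2j5 (10.87). In NZB/W, 36-week replicate 7 was highest for Cyp2j13 (6.41) and 16-week replicate 7 for Cyp2r1 (4.18).

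A test of the difference of fold changes between strains was passed by these members. The NZB/W change minus the NZM2410 change was -1.80 for Cyp24a1, -1.59 for Cyp2j13 and -1.96 for Cyp4b1. NZB/W minus NZW/BXSB was 3.05 for Cyp2d9, 2.64 for Cyp2d12, 2.16 for Cyp7b1, 1.0 for Cyp2b10, 0.39 for Cyp2d10, -0.76 for Cyp2c44 and -0.23 for Cyp2r1. NZM2410 minus NZW/BXSB was 2.87 for Cyp2d12, 2.77 for Cyp2d9, 2.18 for Cyp7b1, 1.98 for Cyp4b1, 1.81 for Cyp2j13, 1.05 for Cyp2b10, 0.88 for Cyp4v3, 0.38 for Cyp2d10 and -0.84 for Cyp2c44. Cyp2b10 and Cyp2d10 were not above the authors' baseline in NZB/W and NZM2410, nor was Cyp2r1 in any table, so their values are no evidence of a strain difference.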

How the results depend on the processing

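Of 4001 values of single members under an alternative, 3766 stayed on the same side of the threshold, 215 lost a call and 19 gained one. Uncalled values among the 3766 could change sign, as Cyp11a1 and Cyp21a1 did at 23 against 16 weeks without arrays of high adrenal markers. The remaining 1 reversed sign with a call. Cyp11a1 in NZM2410 had a log2 change of 0.44 with the adrenal cortex marker covariate, against -0.28. The cause of these shifts was not tested. Array weights raised calls over all genes as well. With them the members called numbered 17 at 36 against 16 weeks (25.8%, beside 39.7% of all genes), 5 at onset against 23 weeks (7.58%, beside 13.2%), 15 at 23 against 16 weeks (22.7%, beside 22.4%), 7 at 36 weeks against onset (10.6%, beside 14.3%), 22 in NZM2410 (33.3%, beside 39.1%) and 31 in NZW/BXSB (47%, beside 35.8%; 6 higher and 25 lower). The differences had 5 (NZB/W minus NZM2410; 7.58%, beside 16.6%), 29 (NZB/W minus NZW/BXSB; 43.9%, beside 32.9%) and 19 (NZM2410 minus NZW/BXSB; 28.8%, beside 27.2%). The title block, with an estimated correlation of 0.386 in NZB/W and 0.296 in NZW/BXSB, left 9 members called at 36 against 16 weeks (4 higher and 5 lower; 13.6%, beside 13.4% of all genes) and 15 in NZW/BXSB (5 higher and 10 lower; 22.7%, beside 15.7%). The Gapdh covariate left 10 at 36 against 16 weeks (5 higher and 5 lower; 15.2%, beside 15.3%). Fits of the 2 groups alone gave 2 at onset against 23 weeks (3.03%, beside 6.93% of all genes) and 1 at 23 against 16 weeks (1.52%, beside 0.115%). At 36 weeks against onset the 3 calls (4.55%, beside 2.32% of all genes) became 1 with quantile normalization (1.52%, beside 1.24%). They became 0 with the title block (beside 0.443% of all genes), the Gapdh covariate (0.668%) and the spiked control covariate (0.0546%). The count was also 0 with the adrenal covariate (0.115%), the 2 groups alone (0.00607%), or without arrays with high adrenal markers (0.0971%). Calls over all genes thus fell as well. Leaving out the dimmest 25% of genes left 4 differences between NZB/W and NZW/BXSB and 5 between NZM2410 and NZW/BXSB. Any member among the genes left out was not tested there, so a lower count need not mean lost calls. Without arrays of high adrenal markers 1 difference between NZB/W and NZM2410 was called. That exclusion, and leaving out arrays for the differences, were chosen after seeing the data.

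Leaving out 1 array gave 10 to 15 calls in NZB/W at 36 against 16 weeks, 0 to 8 at 36 weeks against onset (8 without onset replicate 5), 12 to 19 in NZM2410, 17 to 24 in NZW/BXSB, and 2 to 4, 5 to 9 and 6 to 13 for the 3 differences in the order above. Replicate numbers were not taken to pair the samples, since in none of the 6 comparisons was every correlation of same-numbered arrays over 0.1. These ran from -0.44 to 0.43, with 1 of 8 pairs over 0.1 at 36 against 16 weeks and, at the most, 3 of 6 pairs at onset against 23 weeks. With the replicate block 14 members were called at 36 against 16 weeks (21.2%, beside 29.4% of all genes) and 5 at 36 weeks against onset (7.58%, beside 11.4%). There were 15 in NZM2410 (22.7%, beside 21.9%) and 17 in NZW/BXSB (25.8%, beside 14.1%). Calls lost under an alternative included Cyp2s1 in NZB/W with the title block (adjusted p = 0.0562) and in the fit of the 2 groups alone (adjusted p = 0.0512), Cyp4f13 in NZM2410 with the replicate block (adjusted p = 0.0575), Cyp3a13 in NZW/BXSB with the replicate block (adjusted p = 0.0715) and the Gapdh covariate (adjusted p = 0.057), and Cyp2b10 in NZW/BXSB with the title block (adjusted p = 0.0805). Values below the authors' baseline and groups of 5 or 6 arrays limit what could be detected.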
